A study of Mus musculus with 12 samples.

Results

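The mitochondrial carriers of the solute carrier family 25 (Slc25) were described across 4 lines of mouse embryonic fibroblasts (MEFs) by their nuclear-encoded mRNA. Members were all genes of the deposited count table whose symbol is Slc25a followed by a number, apart from 3 that were not taken up here, which left 44 of the 47 such symbols among 24453 genes. Slc25 proteins are small carriers built from repeats of one fold that exchange one metabolite for another, nearly all across the inner mitochondrial membrane. They hand ATP to the cytosol in return for ADP, bring in phosphate, move citrate, malate, aspartate and glutamate between the compartments, and supply the matrix with cofactors, glutathione and iron. In a cell without mtDNA no electron transport chain is built, and ADP/ATP carriers are known to run backwards there, taking glycolytic ATP into the matrix to keep up a membrane potential.

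All 4 lines are labelled with the strain C57BL6/J and the genotype Pnpt1 neo-flox/neo-flox, the allele of the parental line in which loxP sites flank exon 2 of *Pnpt1*, the gene of the mitochondrial exoribonuclease PNPase, and all were grown with uridine at 50 µg/mL. TM6 is the untreated parental line, immortalized with the SV-40 large T antigen, rho0 is a single cell colony of TM6 taken after 3 weeks of ditercalinium at 750 ng/mL, which depletes mtDNA, and PKO-1 and PKO-6 are single clones of TM6 (clone 1 and clone 6) that received Cre from an adenovirus and lost exon 2. Each line gave 3 cultures, so 12 libraries were compared, and since each derived line is 1 clone, the p-values measure the spread between cultures and not between independently made lines. The authors report that the PKO clones had lost mtDNA as well and did not respire. In a comparison of a clone with TM6, loss of PNPase and loss of mtDNA therefore cannot be told apart. The first question was how the carriers differ between each derived line and the parental line. The second was whether the 2 knockout clones differ from each other and from rho0.

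The deposited values were expected counts, which the authors estimated with RSEM against RefSeq transcripts, and TPM, which scale counts for transcript length and for the size of the library. Totals were 47164860 to 67991378 counts per library with a median of 55405646, and *Rn45s*, the ribosomal RNA precursor, took 12.2% to 19.6% of them. *Pnpt1* had 3131 ± 262 normalised counts in TM6, 5271 ± 230 in rho0, 1240 ± 44.3 in PKO-1 and 1944 ± 250 in PKO-6 (n = 3 per line, SD), counted over all exons. Of 8 fibroblast markers, 7 had at least 10 counts in every library of each line, while *Thy1* had 0 to 4.99 normalised counts. *Krt5*, *Cd3e*, *Plin1* and *Myog*, markers of other cell types, were at 0 in all 12 libraries, but their lists as a whole were not. The 4 muscle markers summed to 9.51 to 22.0 normalised counts in TM6 and 8.33 to 27.9 in PKO-1. In rho0 they summed to 0.97 to 1.12, and in PKO-6 to 0.97 to 1.64. The 1 muscle marker with enough counts to be tested was called lower in rho0 and PKO-6 than in TM6. The summed fibroblast markers were lowest in PKO-6, at 347957 to 387628 normalised counts against 514166 to 564146 in TM6. They summed to 446227 to 497971 in rho0 and 579557 to 629034 in PKO-1. Their members differed in direction: *Col1a1*, *Col1a2*, *Col3a1*, *Pdgfrb* and *Vim* were called lower in PKO-6 than in TM6 and *Fn1* higher (208419 against 113270). Of the 7 tested, 5 were also called lower and 1 higher in rho0, and 2 lower and 3 higher in PKO-1. These counts are to be read beside the shares of all genes given below. The epithelial markers were highest in PKO-6, at 86.0 to 115 against at most 16.7 elsewhere, with 2 of the 4 at 10 counts or more in every library. Endothelial markers summed to 158 to 177 in PKO-6 and at most 86.8 elsewhere, and hematopoietic markers to 169 to 199.7 and at most 154. Most of these sums came from *Epcam* (88.0 in PKO-6), *Kdr* (142) and *Cd68* (186). The part of these marker differences in the results on rho0, PKO-1 and PKO-6 was not tested.

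To obtain normalised counts, the counts of a library were divided by its TMM-scaled size, taken relative to the mean library. Of the 44 members, 39 had enough counts to be tested, and the other 5 were *Slc25a21*, *Slc25a31*, *Slc25a34*, *Slc25a41* and *Slc25a54*, with at most 10 counts in any library. For the comparisons, edgeR's quasi-likelihood test was fitted to the 4 lines over 14026 genes, and a gene was called where the adjusted p lay below 0.01 and the absolute log2 fold change above 0.5. In bulk RNA, less of a transcript per cell cannot be told apart from fewer cells that make it.

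By level the family was dominated by the carriers of ADP, ATP and phosphate. *Slc25a3*, *Slc25a4* and *Slc25a5* together held 69.02% ± 1.07 of the members' summed TPM in TM6, 54.9% ± 1.03 in rho0, 61.7% ± 1.06 in PKO-1 and 54.1% ± 1.30 in PKO-6 (n = 3 per line, SD). The summed TPM of the members was 2570 ± 57.4 in TM6, 1739 ± 21.4 in rho0, 1961 ± 27.4 in PKO-1 and 1641 ± 17.7 in PKO-6 (n = 3 per line, SD), so that every TM6 culture lay above every culture of the other lines. TPM here includes *Rn45s* and 2 other abundant noncoding RNAs, and without these 3 the members held 0.311%, 0.219%, 0.244% and 0.219% of the TPM in the same order of lines. *Slc25a3* held rank 1 and *Slc25a39*, a glutathione carrier, rank 4 in each line. In TM6, the ranges of *Slc25a5* (575 TPM) and *Slc25a4* (569 TPM) overlapped, as did those of the citrate carrier *Slc25a1* (109 TPM) and the ATP-Mg/phosphate carrier *Slc25a24* (106 TPM). In rho0, *Slc25a4* (301 TPM), *Slc25a5* (233 TPM) and *Slc25a39* (193 TPM) followed each other without overlap. At the other end, 11 to 12 members lay below 1 TPM in each library.

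**Figure D1:**
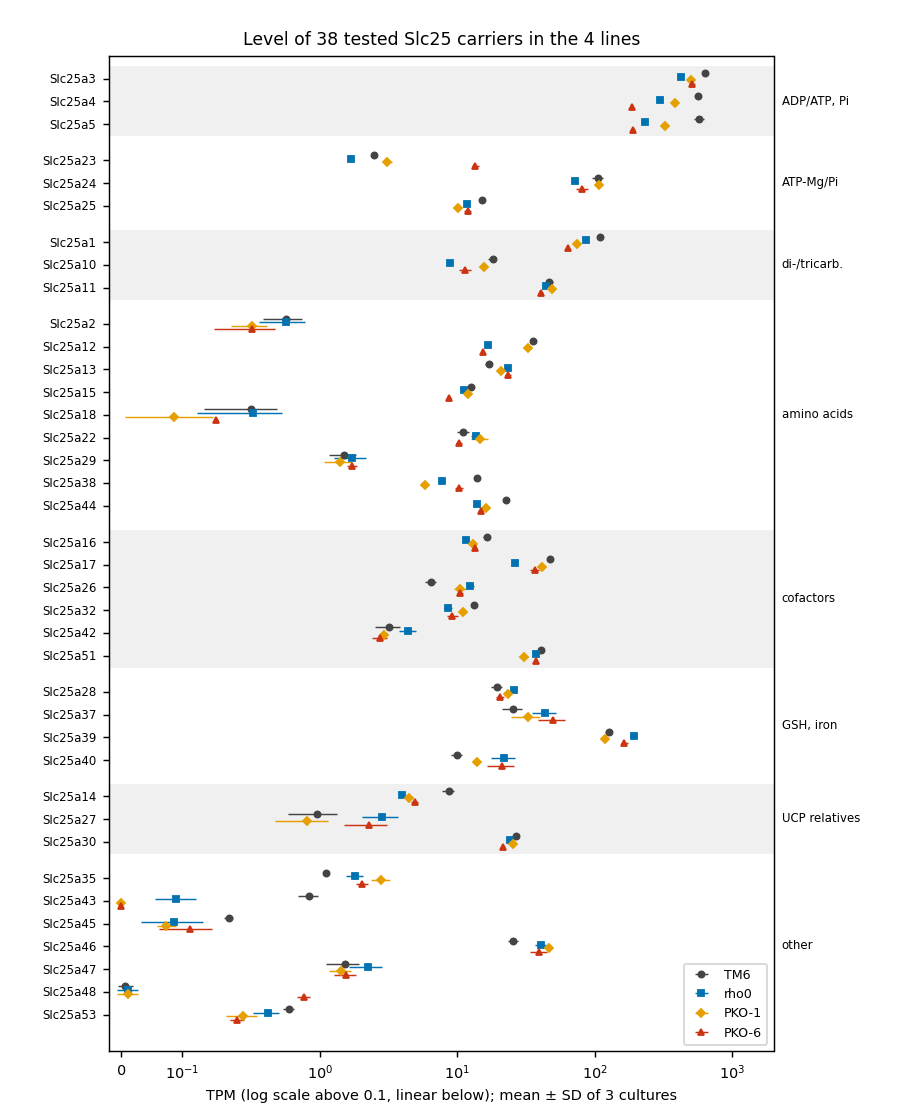
Level of 38 tested Slc25 carriers by transported substrate. The horizontal axis gives TPM on a log scale (linear below 0.1), points are line means and bars the SD of 3 cultures. *Slc25a3*, *Slc25a4* and *Slc25a5* lie furthest to the right in TM6, at 630, 569 and 575 TPM.

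In rho0 against TM6, 20 of the 39 tested members were called, 7 higher and 13 lower, which is 51.3% beside 42.1% of all tested genes (20.7% higher, 21.4% lower). In PKO-1 against TM6, 10 were called, 4 higher and 6 lower, which is 25.6% beside 34.3% of all tested genes (16.4% higher, 17.9% lower). In PKO-6 against TM6, 18 were called, 9 higher and 9 lower, which is 46.2% beside 41.3% of all tested genes (21.9% higher, 19.4% lower). The share of members called lay above that of all genes in rho0 and PKO-6 and below it in PKO-1, with no test of the difference. The medians of the tested members' log2 fold changes, at -0.13, -0.07 and -0.26, lay beside 0.02, 0.00 and 0.01 for all genes. The 3 comparisons share the TM6 libraries. Counts of called members by substrate group, given below, rest on few genes each and are to be read beside these same shares of all genes. No group was tested as a set. One member, *Slc25a23*, was called in opposite directions, lower in rho0 and higher in PKO-6.

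**Figure D2:**
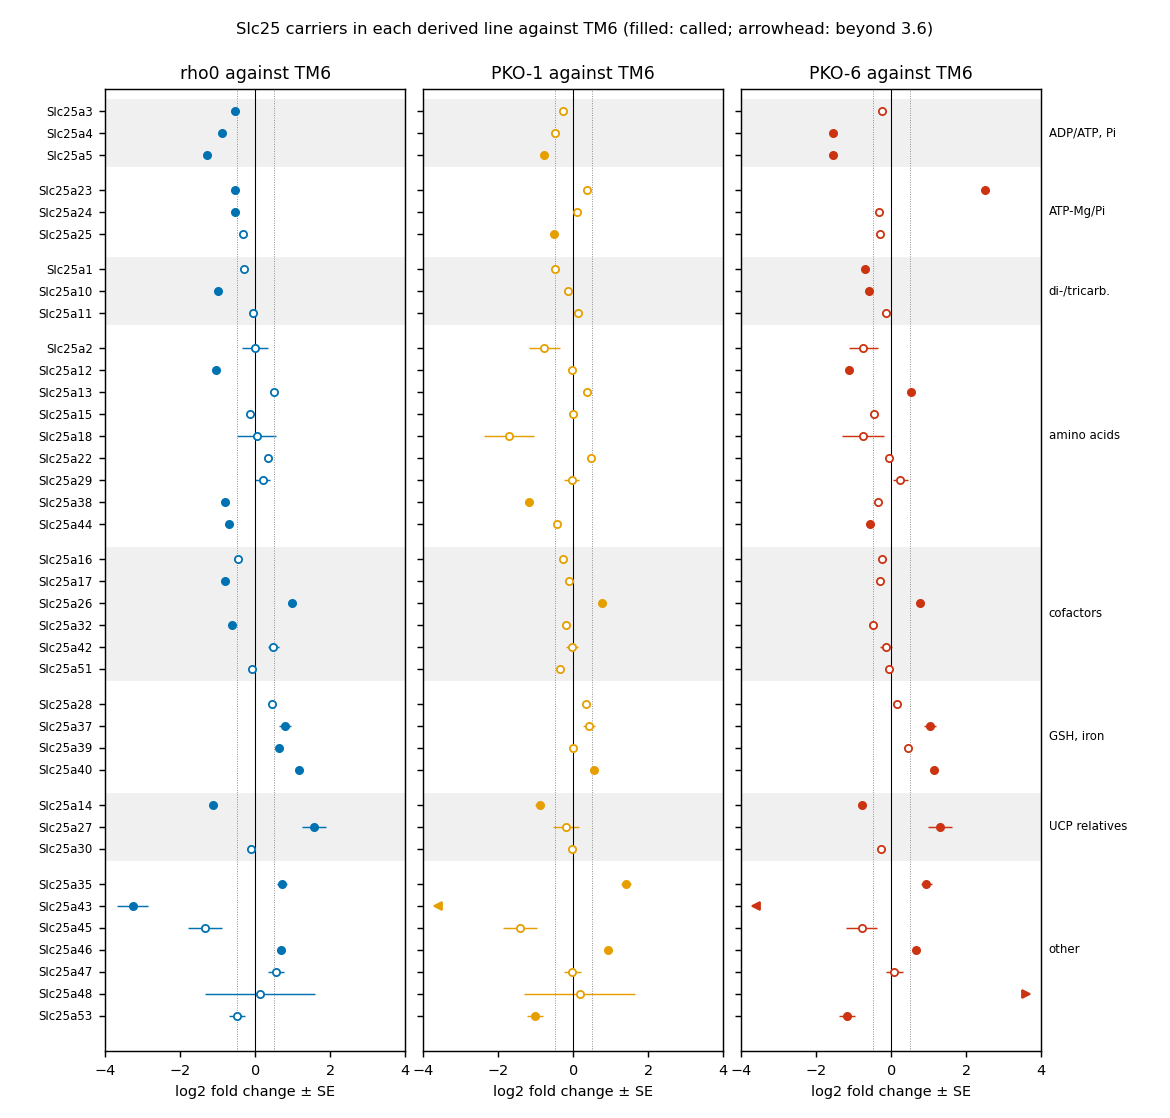
Log2 fold changes of 38 tested carriers against TM6, with SE bars, grouped by substrate. Filled points were called, open points were not, dotted lines mark 0.5 in either direction, and arrowheads mark *Slc25a43* in both PKO clones and *Slc25a48* in PKO-6, which lie beyond the axis. Fold changes of the glutathione and iron group lie at or right of 0 (*Slc25a39* in PKO-1 at -0.01), and those of the ADP/ATP and phosphate group left of it in all 3 lines.

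Of the carriers that exchange ADP for ATP or import phosphate, 3 were tested, and 3 were called lower in rho0, 1 in PKO-1 and 2 in PKO-6, with 0 higher. *Slc25a5* (Ant2), the ADP/ATP carrier of dividing cells, lies on chromosome X from 36795597 to 36798808 on the plus strand of GRCm38. It had 18941, 22302 and 22069 normalised counts in the TM6 cultures, 9366, 8084 and 8608 in rho0, 12976, 12601 and 11534 in PKO-1, and 7095, 7698 and 6928 in PKO-6. All 9 cultures of the derived lines lay below the lowest TM6 culture, and PKO-1 lay between TM6 and the other two lines without overlap. The log2 fold change against TM6 was -1.28 in rho0 (SE 0.0784, edgeR adjusted p = 5.29e-09), -0.77 in PKO-1 (SE 0.0775, edgeR adjusted p = 1.11e-06) and -1.54 in PKO-6 (SE 0.079, edgeR adjusted p = 7.08e-10). The median log2 fold change of chromosome X genes was -0.75, -0.74 and -0.87 in these comparisons. After subtraction of that median, *Slc25a5* was at -0.53, -0.03 and -0.67.

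*Slc25a4* (Ant1), the ADP/ATP carrier typical of heart and muscle, lies on chromosome 8 from 46207341 to 46211009 on the minus strand. Its normalised counts were 16629, 17992 and 17292 in TM6, 10531, 8406 and 9103 in rho0, 12324, 12852 and 11630 in PKO-1, and 5938, 6301 and 5442 in PKO-6. No lines overlapped, with TM6 highest and PKO-6 lowest. The log2 fold change was -0.89 in rho0 (SE 0.0803, edgeR adjusted p = 2.87e-07) and -1.55 in PKO-6 (SE 0.0816, edgeR adjusted p = 9.18e-10), while the value of -0.50 in PKO-1 (SE 0.0798, edgeR adjusted p = 9.21e-05) fell short of the fold change threshold. The ratio of *Slc25a4* to *Slc25a5* in TPM was 0.992 ± 0.0582 in TM6, 1.29 ± 0.0519 in rho0, 1.197 ± 0.0431 in PKO-1 and 0.980 ± 0.0297 in PKO-6 (n = 3 per line, SD). Both ADP/ATP carriers were thus at nearly equal levels in TM6 and PKO-6, and *Slc25a4* was the higher of the pair in rho0 and PKO-1.

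*Slc25a3*, the phosphate carrier, which also brings copper into the matrix, lies on chromosome 10 from 91116578 to 91123963 on the minus strand. It had 27752, 28202 and 26928 normalised counts in TM6, 21303, 17318 and 17943 in rho0, 23326, 23775 and 22019 in PKO-1, and 24102, 25801 and 20472 in PKO-6. Every derived culture was below every TM6 culture, but only the rho0 difference was called, with a log2 fold change of -0.55 (SE 0.0891, edgeR adjusted p = 8.09e-05) against -0.26 in PKO-1 (SE 0.0889, edgeR adjusted p = 0.0192) and -0.24 in PKO-6 (SE 0.0888, edgeR adjusted p = 0.0292). After subtraction of the chromosome 10 median the rho0 value was -0.37, short of the threshold. In TPM the ratio of *Slc25a3* to the summed ADP/ATP carriers was 0.552 ± 0.0387 in TM6, 0.790 ± 0.0224 in rho0, 0.710 ± 0.0111 in PKO-1 and 1.37 ± 0.0860 in PKO-6 (n = 3 per line, SD). PKO-6 was therefore the one line in which the phosphate carrier exceeded both ADP/ATP carriers together. *Slc25a31* (Ant4), the ADP/ATP carrier of germ cells, had raw counts of 2, 1 and 0 in TM6, 0, 4 and 3 in rho0, 2, 2 and 0 in PKO-1 and 2, 0 and 0 in PKO-6, too few for a comparison.

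The 250 bases before the start of the 2 abundant ADP/ATP carriers are shown because both genes were called lower in rho0 and in PKO-6. They are RefSeq windows of GRCm38, printed 5′ to 3′ on the gene's own strand, chr8:46211063-46211312 on the minus strand for *Slc25a4* and chrX:36795347-36795596 on the plus strand for *Slc25a5*, with letters in capitals where a searched motif was found.
Slc25a4: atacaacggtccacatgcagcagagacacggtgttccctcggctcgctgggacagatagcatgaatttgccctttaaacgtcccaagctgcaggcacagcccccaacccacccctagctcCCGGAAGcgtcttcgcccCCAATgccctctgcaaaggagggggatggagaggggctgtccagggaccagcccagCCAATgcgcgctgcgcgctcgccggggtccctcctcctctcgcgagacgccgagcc
Slc25a5: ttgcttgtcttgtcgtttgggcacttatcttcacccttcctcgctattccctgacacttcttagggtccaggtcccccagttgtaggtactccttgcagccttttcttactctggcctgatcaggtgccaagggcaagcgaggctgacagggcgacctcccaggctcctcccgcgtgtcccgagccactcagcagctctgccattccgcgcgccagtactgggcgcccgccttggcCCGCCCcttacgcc
The RefSeq window of *Slc25a4* starts from position 46211062, upstream of the gene's limit in the deposited annotation. The capitals in *Slc25a4* mark an ETS core (CCGGAAG) and a pair of CCAAT boxes (CCAAT), and those in *Slc25a5* an SP1 box (GGGCGG, read on the other strand). The search covered both strands and also the NRF1 core, the E-box (CACGTG), TGATGNAA, the TATA box (TATAAA) and TGACGTCA. Among the 43 windows of 33 members, SP1 boxes occurred in 29 (67.4%, beside 32.7% of all 32851 windows), CCAAT boxes in 19 (44.2%, beside 33.8%), E-boxes in 6 (13.95%, beside 6.02%), ETS cores in 5 (11.6%, beside 6.91%), NRF1 cores in 2 (4.65%, beside 3.74%), TATA boxes in 2 (4.65%, beside 12.4%), TGACGTCA in 1 (2.33%, beside 1.55%) and TGATGNAA in 0 (beside 3.45%). The 1 match of TGACGTCA lies in a window of *Slc25a25*. That motif was added to the search after the window had been read, so its share among the members was not open beforehand. All of these are matches of letters and do not show that a factor binds.

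The ATP-Mg/phosphate carriers, which set the total adenine nucleotide pool of the matrix and are switched on by cytosolic calcium through their own calcium-binding domain, split by line, with 2 of 3 tested called lower in rho0, 1 lower in PKO-1 and 1 higher in PKO-6. *Slc25a23*, on chromosome 17 from 57043711 to 57059863 on the minus strand, had 268, 267 and 251 normalised counts in TM6, 188, 173 and 176 in rho0, 336, 330 and 355 in PKO-1, and 1473, 1499 and 1459 in PKO-6. PKO-6 stood apart from all other cultures, and rho0 was lowest. The log2 fold change against TM6 was 2.49 in PKO-6 (SE 0.0707, edgeR adjusted p = 1.95e-12) and -0.55 in rho0 (SE 0.0749, edgeR adjusted p = 1.72e-05), and the value of 0.38 in PKO-1 (SE 0.0718, edgeR adjusted p = 3.91e-04) was not called. *Slc25a41*, the relative without a calcium-binding domain, lies 2.1 kb from *Slc25a23* on the same strand and was not tested, and its raw counts were 10, 6 and 5 in PKO-6 and at most 2 in every other culture. *Slc25a24*, the most abundant carrier of the group, had 9922 to 11883 normalised counts in TM6 and 7414 to 7995 in rho0, and its log2 fold change of -0.53 (SE 0.0712, edgeR adjusted p = 1.49e-05) was no longer called without TM6 replicate 2 (-0.50) or replicate 3 (-0.48), nor after subtraction of the chromosome 3 median (-0.36).

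*Slc25a25* was lower in PKO-1 at a log2 fold change of -0.50 (-0.502, SE 0.0514, edgeR adjusted p = 1.32e-06), just past the threshold and not called without PKO-1 replicate 1 (-0.48) or after subtraction of the chromosome 2 median (-0.42). It stood at -0.33 in rho0 and -0.29 in PKO-6, which were not called. The gene lies on chromosome 2 from 32414487 to 32451470 on the minus strand and has 3 transcription starts in the annotation, at 32451470, 32431151 and 32424066, so that its transcripts differ in their first exon and in the start of the protein. RSEM estimates split its counts among them. The transcript from the innermost start had 499, 529 and 486 normalised estimated counts in TM6, 106, 170 and 135 in rho0, 82.0, 163 and 87.0 in PKO-1, and 343, 356 and 317 in PKO-6. It made up 33.6% ± 1.82 of the gene's TPM in TM6, 11.7% ± 3.11 in rho0, 10.5% ± 4.21 in PKO-1 and 27.8% ± 1.59 in PKO-6 (n = 3 per line, SD). Cultures of rho0 and PKO-1 lay below all cultures of TM6 and PKO-6. The 10-exon transcript from the outermost start was nearer to level, with 936 to 966 normalised estimated counts in TM6, 890 to 1114 in rho0, 838 to 912 in PKO-1 and 738 to 799 in PKO-6. Transcripts were not tested, and reads of the shared exons are assigned by the model, so the split is an estimate.

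**Figure D3:**
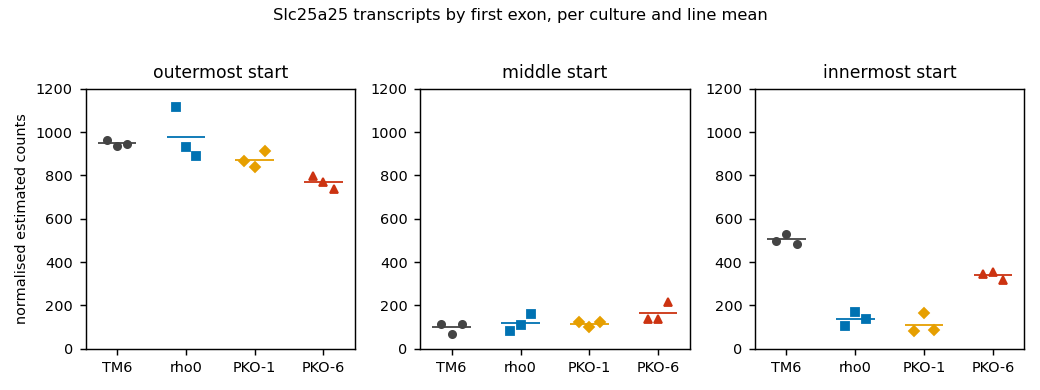
Normalised estimated counts of *Slc25a25* transcripts by first exon, one panel per transcription start. For the outermost start only the 10-exon transcript is drawn. Points are cultures and bars line means. The innermost start is at 82.0 to 170 in rho0 and PKO-1 and at 317 to 529 in TM6 and PKO-6.

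The windows before the outermost and the innermost start of *Slc25a25* are shown because their transcripts had different levels across the lines. They cover chr2:32451471-32451720 and chr2:32424067-32424316 of GRCm38 on the minus strand, and capitals mark motif matches as above.
Slc25a25 outermost: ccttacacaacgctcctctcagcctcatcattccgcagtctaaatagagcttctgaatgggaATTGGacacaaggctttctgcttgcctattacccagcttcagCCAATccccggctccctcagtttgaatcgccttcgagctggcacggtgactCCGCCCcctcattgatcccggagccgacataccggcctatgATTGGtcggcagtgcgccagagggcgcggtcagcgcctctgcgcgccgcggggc
Slc25a25 innermost: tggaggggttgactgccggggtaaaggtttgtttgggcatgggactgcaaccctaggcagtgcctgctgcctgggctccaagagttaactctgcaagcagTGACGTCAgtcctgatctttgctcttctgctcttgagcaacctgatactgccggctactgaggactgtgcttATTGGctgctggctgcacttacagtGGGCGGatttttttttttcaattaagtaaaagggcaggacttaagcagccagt
The outermost window holds 3 CCAAT boxes, read on either strand, and an SP1 box. The innermost window holds 1 CCAAT box, an SP1 box and TGACGTCA, the palindromic cAMP response element, which was added to the search after this window had been read.

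Carriers of di- and tricarboxylates feed citrate to the cytosol for lipid synthesis and exchange malate, succinate and oxoglutarate, and of the 3 tested, 1 was called lower in rho0, 0 in PKO-1 and 2 in PKO-6. *Slc25a10*, the dicarboxylate carrier, was lower in rho0, at 1054 to 1274 normalised counts against 2190 to 2437 in TM6 (log2 fold change -0.998, SE 0.0999, edgeR adjusted p = 8.01e-07), and in PKO-6, at 1264 to 1730 (log2 fold change -0.60, SE 0.0982, edgeR adjusted p = 9.04e-05). The PKO-6 call was lost without PKO-6 replicate 3 (-0.49). *Slc25a1*, the citrate carrier, was lower in PKO-6 (log2 fold change -0.71, SE 0.0728, edgeR adjusted p = 9.75e-07), and its values in rho0 (-0.30) and PKO-1 (-0.50) were not called. *Slc25a11*, the oxoglutarate carrier of the malate-aspartate shuttle, had log2 fold changes of -0.05, 0.13 and -0.14 in rho0, PKO-1 and PKO-6 and was not called in any line. *Slc25a21*, the oxodicarboxylate carrier, had 0 to 4 counts.

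Among the 9 amino acid carriers, 3 were called lower in rho0 and 1 in PKO-1, while in PKO-6 2 were called lower and 1 higher. The 2 aspartate/glutamate carriers, which drive the malate-aspartate shuttle, were called in opposite directions in PKO-6. *Slc25a12* (aralar), on chromosome 2 from 71274295 to 71367554 on the minus strand, had 3094, 3313 and 3176 normalised counts in TM6, 1763, 1426 and 1437 in rho0, 3094, 3219 and 3048 in PKO-1 and 1499, 1552 and 1319 in PKO-6. PKO-1 overlapped TM6, and rho0 and PKO-6 overlapped each other well below both. The log2 fold change was -1.05 in rho0 (SE 0.0807, edgeR adjusted p = 5.46e-08), -1.13 in PKO-6 (SE 0.0807, edgeR adjusted p = 2.12e-08) and -0.03 in PKO-1 (edgeR adjusted p = 0.725). *Slc25a13* (citrin) was higher than in TM6 in all derived cultures, at 1525 to 1722 normalised counts in TM6 and 2096 to 2535 in the others, but passed the threshold only in PKO-6 (log2 fold change 0.53, SE 0.0589, edgeR adjusted p = 2.07e-06), with 0.50 in rho0 and 0.36 in PKO-1. It was not called when 1 of 5 libraries was left out, at 0.45 without TM6 replicate 1 or PKO-6 replicate 2 and at 0.50 without any 1 of the rho0 replicates, nor after subtraction of the chromosome 6 median (0.45). The ratio of *Slc25a12* to *Slc25a13* in TPM was 2.09 ± 0.0753 in TM6, 1.58 ± 0.0515 in PKO-1, 0.712 ± 0.0576 in rho0 and 0.658 ± 0.0438 in PKO-6 (n = 3 per line, SD), so the order of the pair was inverted in rho0 and PKO-6.

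*Slc25a38*, which brings glycine into the matrix for the first step of heme synthesis, had 655, 627 and 631 normalised counts in TM6, 399, 328 and 370 in rho0, 295, 277 and 277 in PKO-1, and 518, 552 and 427 in PKO-6. All derived cultures were below TM6 and PKO-1 was lowest, with log2 fold changes of -0.80 in rho0 (SE 0.102, edgeR adjusted p = 8.67e-06), -1.17 in PKO-1 (SE 0.104, edgeR adjusted p = 3.17e-07) and -0.35 in PKO-6 (SE 0.1, edgeR adjusted p = 0.00607), the last not called. *Slc25a44*, a carrier of branched-chain amino acids, was called lower in rho0 (-0.70) and PKO-6 (-0.57) and stood at -0.43 in PKO-1. The glutamate carriers *Slc25a22* and *Slc25a18*, the ornithine carriers *Slc25a15* and *Slc25a2*, and *Slc25a29*, a carrier of basic amino acids, were not called against TM6. *Slc25a18* and *Slc25a2* were near the detection limit, at 1.19 to 19.9 and 6.22 to 27.9 normalised counts.

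Of the 7 cofactor carriers, *Slc25a26* alone was called in all 3 lines. It imports S-adenosylmethionine, the methyl donor used in the matrix, and had 328 to 392 normalised counts in TM6, 660 to 747 in rho0, 607 to 676 in PKO-1 and 563 to 691 in PKO-6, with log2 fold changes of 0.97, 0.78 and 0.76 (SE 0.0993 to 0.0997). Its annotated span overlaps that of *Lrig1* on the other strand. *Slc25a17*, the peroxisomal carrier of coenzyme A, FAD and NAD+, was lower in rho0 (log2 fold change -0.82, SE 0.0565, edgeR adjusted p = 1.78e-08), as was *Slc25a32*, a carrier of folate and FAD (log2 fold change -0.62, SE 0.0567, edgeR adjusted p = 3.46e-07). Both lie on chromosome 15, where the median gene had -0.38 in the same comparison, and without that median they stood at -0.44 and -0.24. The coenzyme A carrier *Slc25a42*, the carrier *Slc25a16*, which has been linked to coenzyme A, and the NAD+ carrier *Slc25a51* were not called against TM6.

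Of the 4 glutathione and iron carriers, 3 were called higher in rho0, 1 in PKO-1 and 2 in PKO-6, and 0 lower. *Slc25a40*, a glutathione carrier on chromosome 5 from 8422838 to 8454839 on the plus strand, had 788, 844 and 941 normalised counts in TM6, 1650, 2142 and 1950 in rho0, 1270, 1254 and 1262 in PKO-1, and 1917, 1591 and 2166 in PKO-6. Every derived culture lay above TM6, and the log2 fold changes were 1.16 in rho0 (SE 0.113, edgeR adjusted p = 6.02e-07), 0.56 in PKO-1 (SE 0.113, edgeR adjusted p = 6.62e-04) and 1.14 in PKO-6 (SE 0.112, edgeR adjusted p = 6.29e-07). Without TM6 replicate 1, or after subtraction of the chromosome 5 median, the PKO-1 value was 0.47 and not called. Its close relative *Slc25a39*, the other glutathione carrier and far more abundant, had 5817 to 6554 normalised counts in TM6, 8635 to 11146 in rho0, 6009 to 6385 in PKO-1 and 7263 to 9342 in PKO-6. It was called in rho0 (log2 fold change 0.64, SE 0.0989, edgeR adjusted p = 5.09e-05), and not in PKO-6 (0.44) or PKO-1 (-0.01).

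*Slc25a37* (mitoferrin 1), which imports iron for heme and iron-sulfur clusters, lies on chromosome 14 from 69241851 to 69285103 on the minus strand. It had 3701, 2734 and 3507 normalised counts in TM6, 4897, 6472 and 5907 in rho0, 4137, 3763 and 5441 in PKO-1, and 7095, 5518 and 7662 in PKO-6. Cultures of 1 line spread widely, yet all derived cultures lay above the highest TM6 culture, with log2 fold changes of 0.80 in rho0 (SE 0.159, edgeR adjusted p = 4.82e-04) and 1.03 in PKO-6 (SE 0.159, edgeR adjusted p = 5.22e-05). PKO-1, at 0.42, was not called. *Slc25a28* (mitoferrin 2) had log2 fold changes of 0.45, 0.34 and 0.15 and was not called. In TPM the ratio of mitoferrin 1 to mitoferrin 2 was 1.30 ± 0.0994 in TM6, 1.67 ± 0.325 in rho0, 1.38 ± 0.276 in PKO-1 and 2.42 ± 0.493 in PKO-6 (n = 3 per line, SD).

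Among the relatives of the uncoupling proteins, *Slc25a14* (Ucp5) and *Slc25a27* (Ucp4) differed between lines and *Slc25a30* did not pass the test in any. *Slc25a14*, on chromosome X from 48623578 to 48662298 on the plus strand, had 398, 399 and 325 normalised counts in TM6, 187, 165 and 164 in rho0, 211, 198 and 193 in PKO-1, and 237, 216 and 203 in PKO-6. All derived cultures were below TM6, with log2 fold changes of -1.12, -0.90 and -0.77 (SE 0.108 to 0.110, edgeR adjusted p at most 1.92e-05), and after removal of the chromosome X medians they were -0.37, -0.16 and 0.095. *Slc25a27*, on chromosome 17 from 43641900 to 43667015 on the minus strand, had 103, 44.9 and 88.7 normalised counts in TM6, 180, 290 and 239 in rho0, 66.7, 43.7 and 96.2 in PKO-1, and 212, 129.5 and 240.5 in PKO-6. Here rho0 and PKO-6 lay above TM6 and PKO-1, which overlapped, with log2 fold changes of 1.58 in rho0 (SE 0.321, edgeR adjusted p = 5.72e-04) and 1.30 in PKO-6 (SE 0.321, edgeR adjusted p = 0.00248). The PKO-6 call was lost without TM6 replicate 2 (1.02), PKO-6 replicate 1 (1.198) or PKO-6 replicate 3 (1.12).

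The remaining group holds *Slc25a46*, an outer membrane protein of mitochondrial fission and fusion, and members to which no substrate was assigned in the grouping used here. *Slc25a46* was higher in all lines, at 3187 to 3728 normalised counts in TM6 and 5235 to 7040 in the others, with log2 fold changes of 0.69, 0.92 and 0.67 (SE 0.0718 to 0.072). It lies on chromosome 18, whose median gene was also higher, at 0.42, 0.42 and 0.34. After their subtraction *Slc25a46* was at 0.26 in rho0 and 0.33 in PKO-6, no longer called, and at 0.50 in PKO-1, just past the threshold. *Slc25a35* had 57.1, 63.1 and 59.8 normalised counts in TM6, 91.05, 96.4 and 108 in rho0, 139, 155 and 179 in PKO-1, and 122, 108 and 114 in PKO-6, and was called in all 3 lines (log2 fold changes 0.71, 1.40 and 0.94, SE 0.136 to 0.140). Its span on chromosome 11, from 68968131 to 68972515, overlaps *Rangrf* on the other strand.

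*Slc25a43* and *Slc25a48* were near 0 in some lines and present in others. *Slc25a43*, on chromosome X from 36743632 to 36777307 and 18.3 kb from *Slc25a5* on the same strand, had raw counts of 33, 35 and 23 in TM6, 3, 2 and 3 in rho0 and 0 in all 6 PKO libraries. The ratio of TM6 to rho0 was 10.0 (95% counting interval 4.89 to 24.0), and against a floor of 3 counts per library the gene was at least 8.603-fold lower in PKO-1 and at least 10.0-fold lower in PKO-6. *Slc25a48*, on chromosome 13 from 56438355 to 56472363 on the plus strand, had 48, 32 and 32 raw counts in PKO-6 and 1 count in total in each of the other lines. The ratio of PKO-6 to TM6 was 112 (95% counting interval 19.6 to 4447), to rho0 98.5 (17.3 to 3926) and to PKO-1 95.6 (16.8 to 3809). Intervals and floors cover counting error only. *Slc25a53*, also on chromosome X, had 56.2, 65.9 and 54.8 normalised counts in TM6, 44.6, 48.8 and 32.4 in rho0, 21.4, 30.9 and 34.1 in PKO-1 and 26.2, 23.8 and 27.2 in PKO-6, with all derived cultures below TM6. It was called in PKO-1 (log2 fold change -1.02, SE 0.217, edgeR adjusted p = 9.52e-04) and PKO-6 (-1.19, SE 0.216, edgeR adjusted p = 2.21e-04), not in rho0 (-0.49), and its span overlaps *Zcchc18* on the other strand. After subtraction of the X medians both values fell short of the threshold, at -0.28 and -0.32. *Slc25a45* and *Slc25a47* were not called.

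**Figure D4:**
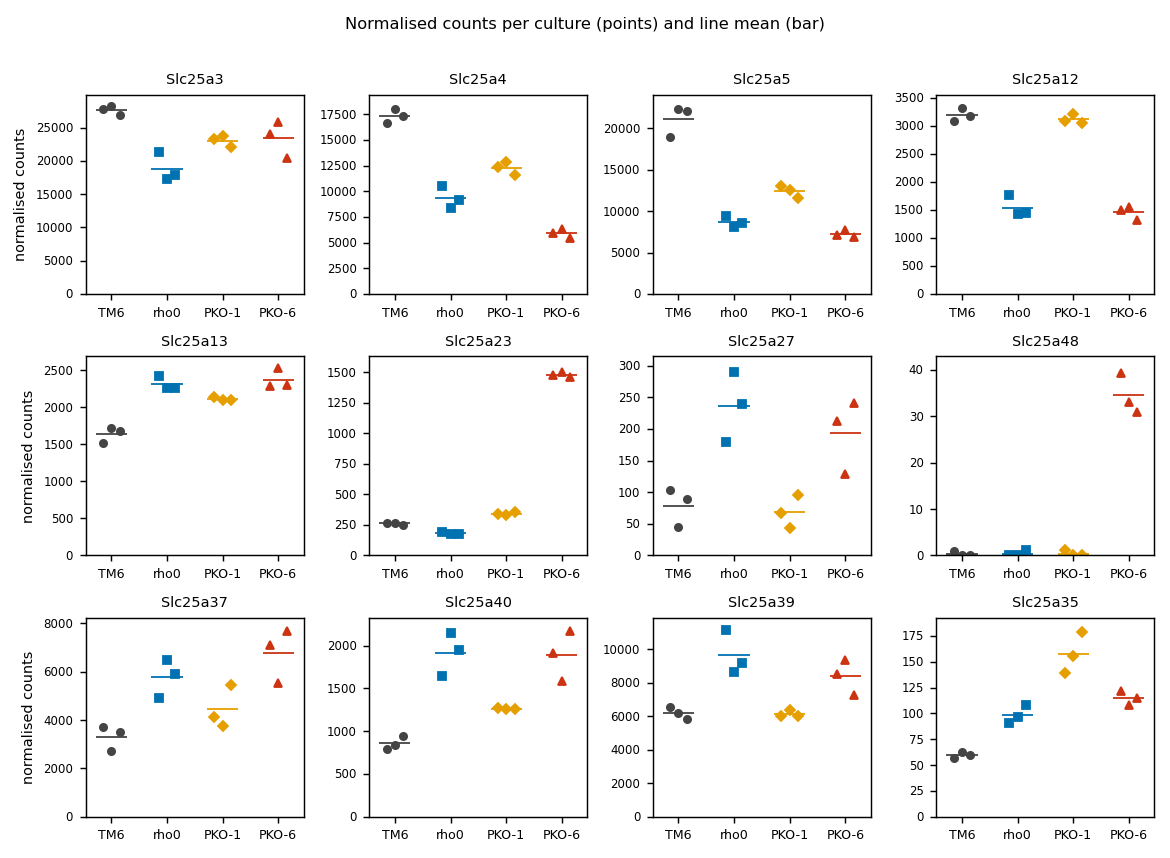
Normalised counts of 12 carriers in each culture, with points for cultures and bars for line means, each axis starting at 0. *Slc25a23* (1459 to 1499) and *Slc25a48* (31.0 to 39.3) stand apart in PKO-6, and *Slc25a12* separates rho0 and PKO-6 from TM6 and PKO-1.

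The median fold change of all genes differed between chromosomes. Besides X, the median log2 fold change of chromosome 12 was 0.55, 0.56 and 0.53 in rho0, PKO-1 and PKO-6. All 4 tested members on X had negative log2 fold changes in each line, though *Slc25a53* was not called in rho0. Once each gene's chromosome median was subtracted, the fold change fell below 0.5 for 6 of the 20 members called in rho0. The same held for 5 of 10 in PKO-1 and 4 of 18 in PKO-6. With newly called members included, 15, 6 and 15 were called. Calls among all tested genes went from 5902 to 5266 in rho0, 4810 to 3955 in PKO-1 and 5799 to 5276 in PKO-6. The adjusted p was kept from the fit and does not test the shifted value. For *Slc25a5* the subtraction removed the PKO-1 call (-0.03) and left those in rho0 and PKO-6. Chromosome copy number was not analysed here, and the part of the chromosome shifts in these differences was not tested.

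**Figure D5:**
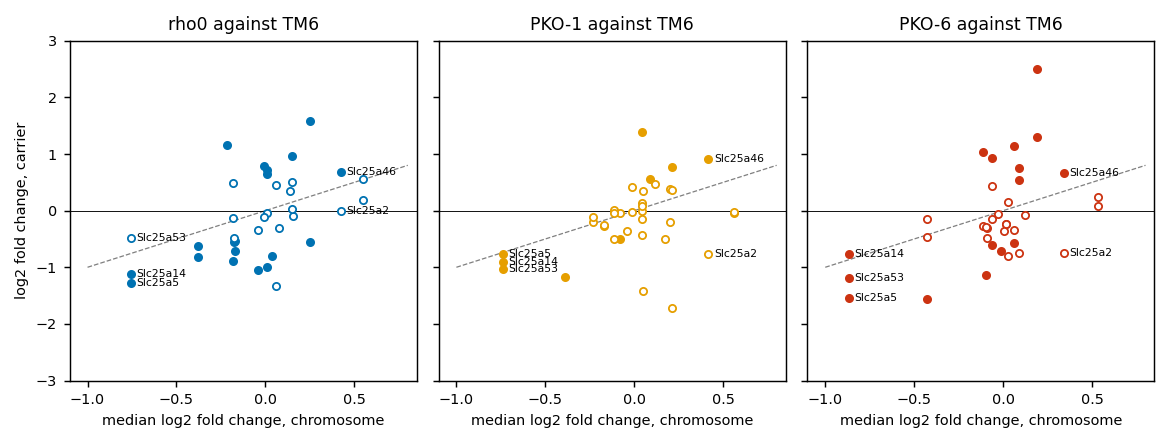
Log2 fold change of tested carriers (vertical axis) against the median log2 fold change of its chromosome (horizontal axis) in 3 comparisons with TM6. Filled points were called, the dashed line marks equality, *Slc25a43* and *Slc25a48* are left out, and carriers on chromosomes X and 18 are labelled. In PKO-1, *Slc25a5* (-0.77) lies at the median of X (-0.74).

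The 2 PKO clones were compared with each other to see how far a difference from TM6 belongs to 1 clone. Of the 39 tested members, 10 passed both thresholds, 4 with more and 6 with less in PKO-1, which is 25.6% beside 29.1% of all tested genes (11.5% higher, 17.6% lower). Higher in PKO-1 were *Slc25a12* (log2 fold change 1.10, SE 0.0809, edgeR adjusted p = 5.63e-08), *Slc25a4* (1.06, SE 0.0809, edgeR adjusted p = 8.43e-08), *Slc25a5* (0.77, SE 0.0779, edgeR adjusted p = 1.31e-06) and *Slc25a22* (0.52, SE 0.0975, edgeR adjusted p = 4.03e-04). Lower in PKO-1 were *Slc25a48*, *Slc25a23* (-2.12, SE 0.0697, edgeR adjusted p = 1.96e-11), *Slc25a27* (-1.49, SE 0.331, edgeR adjusted p = 0.00143), *Slc25a38* (-0.82), *Slc25a37* (-0.60) and *Slc25a40* (-0.58). The call of *Slc25a22* was lost without PKO-1 replicate 3 or PKO-6 replicate 3 (0.43 each), that of *Slc25a40* without PKO-6 replicate 3 (-0.48), and that of *Slc25a37* without PKO-1 replicate 1 or 2 or PKO-6 replicate 1 or 3 (-0.57 to -0.49). With chromosome medians subtracted *Slc25a38* was at -0.45 and *Slc25a22* at 0.41, both short of the threshold.

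Against rho0, PKO-1 differed in 12 members, 7 higher and 5 lower, which is 30.8% beside 32.7% of all tested genes (15.1% higher, 17.6% lower), and PKO-6 in 6 members, 3 higher and 3 lower, which is 15.4% beside 21.5% (13.3% higher, 8.16% lower). *Slc25a12* (1.02), *Slc25a23* (0.92), *Slc25a10* (0.85), *Slc25a17* (0.71), *Slc25a35* (0.68), *Slc25a24* (0.61) and *Slc25a5* (0.51) were higher in PKO-1 than in rho0, and *Slc25a27* (-1.77), *Slc25a39* (-0.65), *Slc25a40* (-0.60), *Slc25a42* (-0.52) and *Slc25a43* lower. *Slc25a23* (3.04), *Slc25a48* and *Slc25a17* (0.51) were higher in PKO-6 than in rho0, and *Slc25a4* (-0.67), *Slc25a42* (-0.62) and *Slc25a43* lower. *Slc25a43* had at most 3 counts in every library of these 3 lines, so no fold is given, and neither of its calls held in any fit that left out a library of the lines compared or of TM6 (edgeR adjusted p = 0.0107 to 0.0206). Without rho0 replicate 2, 3 members were called between PKO-6 and rho0. Several calls near the threshold also depended on a single library: *Slc25a5* in PKO-1 was lost without rho0 replicate 2 (0.45), rho0 replicate 3 (0.49) or PKO-1 replicate 1 (0.48), as well as with DESeq2 size factors (0.49), the DESeq2 Wald test, no filter on low counts or only the compared lines fitted (0.50 each, under the threshold) and with chromosome medians subtracted (0.47). So was *Slc25a17* in PKO-6 without rho0 replicate 2 (0.46), rho0 replicate 3 (0.49) or PKO-6 replicate 2 (0.47). With chromosome medians subtracted, *Slc25a24* in PKO-1 (0.41) and *Slc25a17* (0.19), *Slc25a4* (-0.39) and *Slc25a42* (-0.35) in PKO-6 were not called against rho0. *Slc25a42* in PKO-1 was lost without any of 6 libraries (TM6 replicate 3, rho0 replicate 2 or 3, or any PKO-1 replicate, at -0.58 to -0.45), and in PKO-6 without rho0 replicate 2 (-0.58) or PKO-6 replicate 3 (-0.50).

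With both clones pooled as 1 group against TM6, the fit of 3 groups called 9 members, 4 higher and 5 lower, which is 23.1% beside 25.7% of all tested genes (13.5% higher, 12.2% lower). *Slc25a35* (log2 fold change 1.18, SE 0.191, edgeR adjusted p = 3.46e-04), *Slc25a40* (0.88), *Slc25a46* (0.80) and *Slc25a26* (0.77) were higher, and *Slc25a53* (-1.11), *Slc25a5* (-1.11), *Slc25a14* (-0.83), *Slc25a1* (-0.60) and *Slc25a43* lower. *Slc25a40* was not called without TM6 replicate 1 (0.79) or replicate 2 (0.87), and with chromosome medians subtracted *Slc25a46* (0.41), *Slc25a53* (-0.33), *Slc25a5* (-0.33) and *Slc25a14* (-0.06) were not called. In this fit the difference between the clones counts as spread, with a biological coefficient of variation of 0.248 against 0.0837 in the fit of 4 lines, and *Slc25a4* (-0.93, SE 0.27, edgeR adjusted p = 0.0139) and *Slc25a23* (1.79, SE 0.575, edgeR adjusted p = 0.0227) were not called.

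Genes that work beside the carriers were described from lists of related transporters and enzymes. Of 18 other mitochondrial transporters and channels, 0 were called higher and 5 lower in each of rho0, PKO-1 and PKO-6 against TM6, beside 20.7%, 16.4% and 21.9% of all tested genes higher and 21.4%, 17.9% and 19.4% lower. *Abcb10* (-0.99, -0.84 and -1.43), an inner membrane ABC transporter linked to heme synthesis, was lower in all 3 lines. *Vdac1*, the outer membrane pore through which carrier substrates pass, was lower in rho0 (-0.55) and PKO-6 (-1.03), *Mpc2*, a subunit of the pyruvate carrier, in PKO-1 (-0.60) and PKO-6 (-0.77), and *Smdt1*, of the calcium uniporter, in rho0 (-0.94) and PKO-6 (-0.53). Single lines also had lower *Sfxn2* (rho0, -0.53), *Sfxn1*, the mitochondrial serine transporter (PKO-1, -0.53), and *Mcu*, the uniporter pore (PKO-1, -0.54). A further list held 9 enzymes that work with the citrate, malate-aspartate or glycerol phosphate shuttles. Of these, *Got1*, the cytosolic aspartate aminotransferase, was the one called higher, in all 3 lines (1.44, 1.00 and 1.25). Lower were 5 in rho0, 2 in PKO-1 and 6 in PKO-6, to be read against the same shares of all genes. *Acly*, which splits exported citrate (-0.69, -0.51 and -1.07), and *Me1*, cytosolic malic enzyme (-0.66, -1.38 and -1.23), were lower in all 3. Of 3 tested family members with other symbols, 0 were called higher, while 1 was lower in rho0, 1 in PKO-1 and 2 in PKO-6. *Ucp2* was lower in all 3 lines (-2.93, -2.17 and -2.26), at 4.43 to 13.8 normalised counts against 39.9 to 50.1 in TM6. *Mtch2* was the other one called lower in PKO-6, at a mean of 4657 normalised counts against 6638 in TM6.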

How the data were processed

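RNA was depleted of ribosomal RNA, and strand-specific libraries were made in technical duplicate and merged. Extraction used TriZol or a column kit, and which culture had which is not given in the sources used here. The authors deposited expected counts per gene and, per transcript and library, expected counts and TPM, made with RSEM 1.2.25 and Bowtie2 on GRCm38 with RefSeq transcripts. The values hold no mtDNA-encoded RNA. RSEM shares ambiguous reads among transcripts, so some expected counts had decimals, and they were rounded. Among the members, *Slc25a25*, *Slc25a42* and *Slc25a51* had decimals in all 12 libraries. *Slc25a12*, *Slc25a21*, *Slc25a24*, *Slc25a26* and *Slc25a46* had them in some libraries.

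Genes were filtered with filterByExpr (minimum count 10), scaled by TMM and tested with edgeR 4.0.16 in R 4.3.3, with Benjamini-Hochberg adjustment over 14026 genes. SE is the log2 fold change divided by the square root of F. TPM means and ratios are descriptions. The authors' own test was DESeq2 1.18.1 with moderated fold changes. The members, their substrate groups and the related lists were chosen with earlier results of these data known. The rule for named genes gives each library's value for members called with an absolute log2 fold change of at least 1 against TM6 and for *Slc25a3*, *Slc25a4*, *Slc25a5* and *Slc25a31*, and gives the others by range or fold change. Same-numbered cultures of TM6 and PKO-6 deviated together (r = 0.250, 0.250 and 0.209 for replicates 1 to 3), while other pairs of lines ranged from -0.385 to 0.238. Where the pairing was used, a fit with the replicate number as a block called the same 18 members. Alternatives were DESeq2 size factors, the DESeq2 1.42.0 Wald test, no filter, a replicate block, fits of the compared lines alone, removal of chromosome medians, other thresholds and the omission of each library. The test was also tried on simulated counts. Results for 1 tested carrier, 1 related transporter and 1 marker gene are not reported here by name, though they are part of the counts.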

Additional observations from a re-analysis of the deposited data

Results flagged for a closer look

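The 10 members called between the 2 PKO clones had effects against the shared TM6 cultures that differed, as tested directly by PKO-1 against PKO-6 with edgeR. The log2 fold changes were -6.15 for *Slc25a48*, -2.12 for *Slc25a23*, -1.49 for *Slc25a27*, -0.82 for *Slc25a38*, -0.60 for *Slc25a37*, -0.58 for *Slc25a40*, 0.52 for *Slc25a22*, 0.77 for *Slc25a5*, 1.06 for *Slc25a4* and 1.10 for *Slc25a12*. The value for *Slc25a48* depends on the prior count, because PKO-1 held 1 count in total. *Slc25a38* lies on chromosome 9, whose median in this comparison was -0.37, and *Slc25a4* on chromosome 8, whose median was 0.30. *Slc25a4*, *Slc25a12*, *Slc25a23*, *Slc25a27*, *Slc25a37* and *Slc25a48* were called against TM6 in PKO-6 and not in PKO-1. *Slc25a38* was called in PKO-1 and not in PKO-6, *Slc25a5* and *Slc25a40* in both, and *Slc25a22* in neither.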

How the results depend on the processing

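Each count of called members was recomputed in 18 other fits and with 3 other thresholds. Removal of chromosome medians is counted among the 18 but was no new fit. There the median was subtracted from the log2 fold change, and the adjusted p was kept from the main fit. Of the members called, 14 of 20 in rho0, 5 of 10 in PKO-1 and 12 of 18 in PKO-6 against TM6 were called in all 18 fits, as were 6 of 10 between the clones, 8 of 12 in PKO-1 and 2 of 6 in PKO-6 against rho0, and 4 of 9 with the clones pooled. Leaving out 1 library at a time, the counts ran from 20 to 23 in rho0, 10 to 13 in PKO-1 and 17 to 19 in PKO-6 against TM6, 8 to 12 between the clones, 9 to 12 in PKO-1 and 3 to 6 in PKO-6 against rho0, and 9 to 13 with the clones pooled. Those fits tested 13868 to 14294 genes. Called among all genes were 5604 to 6299 in rho0, 4597 to 4888 in PKO-1 and 5657 to 5962 in PKO-6 against TM6. Between the clones 3820 to 4178 genes were called, and 2874 to 3712 with the clones pooled. Against rho0 the range was 4150 to 4908 in PKO-1 and 2713 to 3399 in PKO-6. A log2 fold change above 1 left 6, 4 and 10 members in rho0, PKO-1 and PKO-6 against TM6, 5 between the clones, 3 in each clone against rho0 and 4 with the clones pooled. The adjusted p alone gave 20 in PKO-1 and 28 in PKO-6 against TM6, 20 between the clones, 14 in PKO-6 against rho0 and 14 with the clones pooled. With the clones pooled, an adjusted p below 0.05 gave 15 and the DESeq2 Wald test 14 (beside 4137 of 15477 genes in that test). All genes were not counted at the 3 other thresholds, so those counts of members stand without a share of all genes. Removal of chromosome medians gave 6 members in PKO-1 against TM6, of which 5 were called before and *Slc25a1* (-0.67) was gained, and reversed *Slc25a14* in PKO-6 to 0.095. With the replicate block, *Slc25a43* was no longer called in either clone against rho0 (edgeR adjusted p = 0.0194 in PKO-1 and 0.0191 in PKO-6), and no other call changed. A block fit of TM6 and PKO-6 alone, chosen after the data were seen, called 19 members. Members with few counts, such as *Slc25a2*, *Slc25a18* and *Slc25a45*, could differ without detection at this depth, and fold changes near 0.5 crossed the threshold with small changes of the fit.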
